A study of Homo sapiens with 4 samples.

Results

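The genes described here are 10 members of the bone morphogenetic protein (BMP) and activin pathway in human hTERT-RPE1 cells: BMP4, INHBA, GREM1, BMPER, FST, ID1, ID2, ID3, SMAD6 and SMAD7. They were taken by gene symbol from a deposited table of 19653 genes, each with 1 row. The choice was made with their values in view, on the pattern that GREM1, BMPER and INHBA were lower and ID1 and SMAD6 higher in the libraries labelled as knockout. Differences of members between the groups are therefore given as descriptions, without p-values. The number of members past the threshold of the whole-table fit is printed beside the share of all genes. It is printed again for the other settings, with nothing read from it about the members. All 10 passed the low-count filter, which left 13140 genes in the fit over the whole table.

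hTERT-RPE1 is a retinal pigment epithelial line immortalised with telomerase. The groups were 2 libraries labelled sgControl, from cells labelled as wild type that carry the vector with Cas9 alone and no guide RNA, and 2 libraries labelled sg53BP1, from cells labelled as 53BP1 knockout after transduction with a lentiviral vector carrying a guide RNA against 53BP1. All were labelled as untreated and grown in DMEM with 10% fetal bovine serum. SE below is the standard error of a log2 fold change. The sources used here do not say whether the cells of a group were a clone or a pool, or whether its libraries came from separate cultures, and p-values below therefore rest on library-to-library spread that may be purely technical.

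BMPs and activins are secreted dimers of the TGF-beta superfamily that bind paired serine/threonine kinase receptors. BMP receptors phosphorylate the transcription factors SMAD1, SMAD5 and SMAD9, and activin receptors phosphorylate SMAD2 and SMAD3. Extracellular proteins such as gremlin and follistatin bind the ligands and keep them from their receptors, while ID genes and the inhibitory SMADs are transcribed in response and the latter damp the signal.

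Libraries held between 16654411 and 18164086 gene counts. Levels are given as CPM, counts scaled to a common library size, with library totals adjusted by TMM, a factor that evens out differences in RNA composition. The control pair was the less alike of the pairs: among 10407 genes with a mean of at least 5 CPM, 412 differed more than 2-fold between the first pair and 4 between the second. TP53BP1, which encodes 53BP1, had 431 and 594 counts in the sgControl pair against 1743 and 1516 in the pair labelled sg53BP1, so that the targeted RNA was higher where the knockout is labelled (log2 fold change 1.56, SE 0.18, edgeR quasi-likelihood adjusted p = 0.00224; adjusted p = 0.144 without sg53BP1 replicate 1 and 0.106 without sg53BP1 replicate 2). The cause of the higher TP53BP1 RNA was not tested. A rise in the RNA of an edited gene cannot be told apart here from an exchange of the column labels. Every direction below follows the labels and would turn if they were exchanged. Of the marker genes of retinal pigment epithelium, 11 of 13 had a row and 7 were tested. None was called with edgeR (1 at an unadjusted p under 0.05), the DESeq2 Wald test or limma-voom. The 11 summed to 700 and 1068 CPM against 683 and 723 CPM. Most of each sum came from the keratins KRT8 and KRT18, named after their values were seen. KRT8 had 548 and 850 against 484 and 518 CPM, and KRT18 had 110 and 170 against 143 and 156 CPM. RPE65 and TTR were not analysed here. The melanocyte and pigment epithelium regulators MITF and OTX2 had 484 to 680 and 114 to 220 counts, whereas the visual-cycle protein RLBP1 and the pigment enzyme TYR had at most 13 and 2; these 4 were chosen after their values were seen.

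The promoter sequences of 4 members are shown because they belong to genes that differed in opposite directions or little: SMAD6 and ID1 were higher in the libraries labelled sg53BP1, ID3 lay at a like level in both groups, and GREM1 was lower. Each is the 250 bases before an annotated transcription start, on the strand of the gene, from RefSeq on GRCh38.p14. The counts were made on another build, hg19, and no coordinates were joined between the builds. The windows are chr15:66701986-66702235 on the plus strand for SMAD6, chr20:31605039-31605288 on the plus strand for ID1, chr1:23559502-23559751 on the minus strand for ID3 and chr15:32717754-32718003 on the plus strand for GREM1. Capitals mark GTCTAGAC in SMAD6, the overlapping matches TTTATA and TATAAA in ID1, and both copies of GGCGCC in GREM1.
SMAD6: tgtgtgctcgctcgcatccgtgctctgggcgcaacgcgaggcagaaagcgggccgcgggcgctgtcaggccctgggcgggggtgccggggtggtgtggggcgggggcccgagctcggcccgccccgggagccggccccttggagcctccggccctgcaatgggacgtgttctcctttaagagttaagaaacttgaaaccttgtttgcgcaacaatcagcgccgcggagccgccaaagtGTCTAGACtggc
ID1: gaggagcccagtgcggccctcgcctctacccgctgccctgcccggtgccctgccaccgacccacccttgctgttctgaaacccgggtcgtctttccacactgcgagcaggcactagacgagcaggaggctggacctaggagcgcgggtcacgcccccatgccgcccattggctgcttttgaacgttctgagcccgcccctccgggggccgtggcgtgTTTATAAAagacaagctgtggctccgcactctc
ID3: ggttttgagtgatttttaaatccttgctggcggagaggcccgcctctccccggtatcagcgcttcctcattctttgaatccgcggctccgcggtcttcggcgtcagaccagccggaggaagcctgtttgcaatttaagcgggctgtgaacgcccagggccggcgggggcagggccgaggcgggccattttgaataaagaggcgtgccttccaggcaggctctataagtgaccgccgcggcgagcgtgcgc
GREM1: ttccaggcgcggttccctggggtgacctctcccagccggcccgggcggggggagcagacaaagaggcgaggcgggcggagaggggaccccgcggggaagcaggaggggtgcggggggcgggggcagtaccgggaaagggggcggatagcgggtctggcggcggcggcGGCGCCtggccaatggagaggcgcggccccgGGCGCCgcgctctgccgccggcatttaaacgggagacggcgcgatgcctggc

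All 10 members matched the promoter table, in 16 windows of 300 bases that also hold the first 50 transcribed bases. The windows were searched on both strands for 5 motifs, and the shares of all 35116 windows stand beside each count. GTCTAGAC, a palindrome of SMAD-binding half-sites, was in 0.202% of all windows and in 1 of the 16, where it lies with its first base 12 bases before the SMAD6 start. GGCGCC, a GC-rich element bound by SMAD1 and SMAD5, was in 19.2% of all windows and in 4 of the 16, belonging to GREM1, BMPER and BMP4. TATAAA, the TATA box, was in 11.5% of all windows and in 3 of the 16, belonging to ID1, INHBA and SMAD7. TGANTCA, an AP-1 motif, was in 7.71% of all windows and in 1 of the 16, belonging to FST, and TGACGTCA, the cyclic AMP response element, was in 1.85% and in none of the 16. The ID3 window shown and that of ID2 held none of the 5. A match is a run of letters and not a measured binding site.

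The secreted ligands BMP4 and INHBA differed in opposite directions. BMP4, a BMP ligand, had 666 and 945 counts in the sgControl pair and 2022 and 1763 counts in the libraries labelled sg53BP1. Counts of members are given in this order below, with replicate 1 before replicate 2. Its level was 48.2 ± 11.4 CPM (SD, n = 2) in the first group and 105 ± 9.82 CPM (SD, n = 2) in the second, a log2 fold change of 1.12 (SE 0.18). Both libraries labelled sg53BP1 were the higher, and the lower of the control libraries was replicate 1. INHBA, the beta A subunit that forms activin A, had 7849 and 5817 counts against 2113 and 1897. At 410 ± 89.6 and 111 ± 8.12 CPM (SD, n = 2 each), its log2 fold change was −1.88 (SE 0.17). The groups did not overlap, although sgControl replicate 1 stood 0.45 log2 units above replicate 2. INHBA overlaps the antisense gene INHBA-AS1, which was counted with 40 and 55 reads against 15 and 19. With no strand setting given in the sources used here, reads of such pairs cannot be told apart.

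The 3 extracellular binding proteins among the members, GREM1, BMPER and FST, were lower in the libraries labelled sg53BP1. The groups of all 3 were apart, beside 25.9% of all tested genes that were lower with groups apart. GREM1 and BMPER were chosen for being lower, so that this is a description only. GREM1, which encodes gremlin 1, a cystine-knot antagonist of BMP2, BMP4 and BMP7, had the most counts of the 10, with 30700 and 27124 against 9105 and 8830. Its share of all counts was 0.184% and 0.161% against 0.0501% and 0.0494%, a log2 fold change of −1.80 (SE 0.13). The SD of its level was 166 CPM around 1732 in the first group and 9.21 CPM around 497 in the second. An antisense gene, AC090877.2, overlaps GREM1 and was counted with 114 and 116 reads against 42 and 42.

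BMPER, a secreted BMP-binding protein related to chordin that can oppose or promote BMP signalling, had 251 and 123 counts against 38 and 26. Its levels of 11.2 ± 5.52 and 1.77 ± 0.465 CPM (SD, n = 2 each) gave a log2 fold change of −2.66 (SE 0.42), the largest change and the second widest error of the 10. The libraries labelled sgControl differed by 1.04 log2 units, with replicate 1 the higher, and without that replicate the log2 fold change was −2.01. FST, which encodes follistatin, a binder that neutralises activin, had 3083 and 3859 counts against 1497 and 1451. Its levels were 208 ± 31.1 and 81.7 ± 1.54 CPM (SD, n = 2 each), with a log2 fold change of −1.35 (SE 0.14). Here sgControl replicate 2 was the higher, the reverse of INHBA, GREM1 and BMPER.

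The ID genes were not alike, with ID1 higher in the libraries labelled sg53BP1, ID3 at a like level and ID2 too low to tell. They encode helix-loop-helix proteins without a DNA-binding region, which dimerise with E proteins and hold them off DNA. ID1 had 723 and 780 counts against 1770 and 2089. Its level was 45.0 ± 2.02 and 107 ± 12.8 CPM (SD, n = 2 each), a difference of 1.25 log2 units (SE 0.14). ID3 had 1218 and 1239 counts against 1168 and 1370, and the groups overlapped, since sg53BP1 replicate 1 was the lowest and replicate 2 the highest of the 4. Its log2 fold change was −0.06 (SE 0.14). ID2 was near the lower end of what was counted, with 25 and 30 counts against 25 and 9. The 95% Poisson intervals were 16.2 to 36.9 counts for sg53BP1 replicate 1 and 4.12 to 17.1 for replicate 2, and cover counting error only. Its log2 fold change of −0.80 had a standard error of 0.56 and was −1.70 without sg53BP1 replicate 1 and −0.25 without replicate 2, so that no difference of ID2 was detectable at this depth. ID2-AS1, an antisense gene, overlaps ID2.

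Of the inhibitory SMADs, SMAD6 was higher in the libraries labelled sg53BP1 and SMAD7 differed little. SMAD6, which mainly damps BMP receptors, had 53 and 83 counts against 282 and 274. Levels of 4.07 ± 1.24 and 15.4 ± 0.265 CPM (SD, n = 2 each) gave a log2 fold change of 1.92 (SE 0.26), the largest increase of the 10. Leaving out sgControl replicate 1 gave 1.67, and leaving out replicate 2 of that group gave 2.28. SMAD7, which damps both TGF-beta and BMP receptors, had 685 and 778 counts against 626 and 645. The groups did not overlap in CPM, with 41.3 and 46.3 against 34.6 and 35.8, but the log2 fold change was −0.31 (SE 0.14). The SMAD6 gene holds a sense intronic gene, AC013564.1, which was not analysed here.

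**Figure D1:**
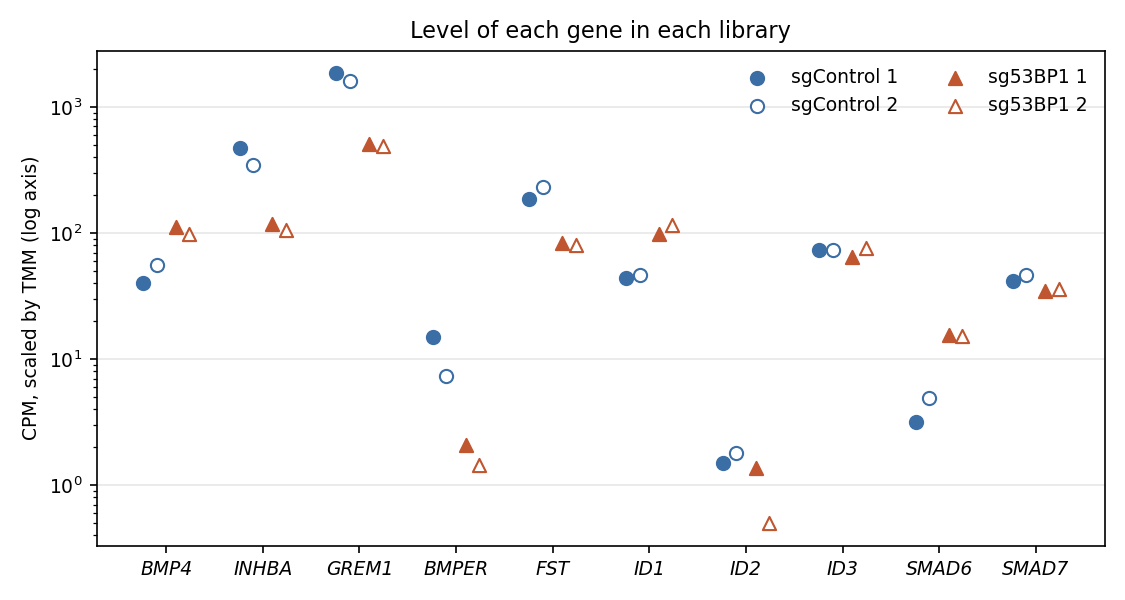
Level of each of the 10 genes in each of the 4 libraries, in CPM scaled by TMM on a log axis; circles are the libraries labelled sgControl and triangles those labelled sg53BP1, filled for replicate 1 and open for replicate 2. The groups overlap for ID3 only, and GREM1 spans from 1850 CPM in sgControl replicate 1 to 491 CPM in sg53BP1 replicate 2.

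In the fit over the whole table, 5.08% of all tested genes passed a Benjamini-Hochberg adjusted p of 0.05 (edgeR quasi-likelihood test), with 2.07% above and 3.01% below their control level where the knockout is labelled. Of the members, 3 were called higher (BMP4, ID1 and SMAD6) and 4 lower (GREM1, BMPER, INHBA and FST), while ID2, ID3 and SMAD7 were not called. The members were chosen on this contrast, so that the count is not a result about them. Groups did not overlap for 9 of the 10 members, beside 50.7% of all tested genes. The median log2 fold change was −0.56 over the members and −0.02 over all tested genes. The count was 0 without sg53BP1 replicate 1 and 0 without sg53BP1 replicate 2, where the spread came from the sgControl pair.

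The difference between the groups was smaller than the gap within the sg53BP1 pair for ID2 (−0.80 beside −1.28) and ID3 (−0.06 beside 0.24), and larger than the gap within either pair for the other 8 members. The gap between sgControl replicates 2 and 1 was 0.49 log2 units for BMP4, 0.61 for SMAD6 and 0.31 for FST, and −1.04 for BMPER, −0.45 for INHBA and −0.20 for GREM1. ID1 and ID3 were close in that pair, with gaps of 0.09 and 0.01, and SMAD7 and ID2 had gaps of 0.17 and 0.23. Within the sg53BP1 pair, the gap was largest for ID2 at −1.28 and for BMPER at −0.51, and the gaps of the remaining 8 lay between −0.19 and 0.25.

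**Figure D2:**
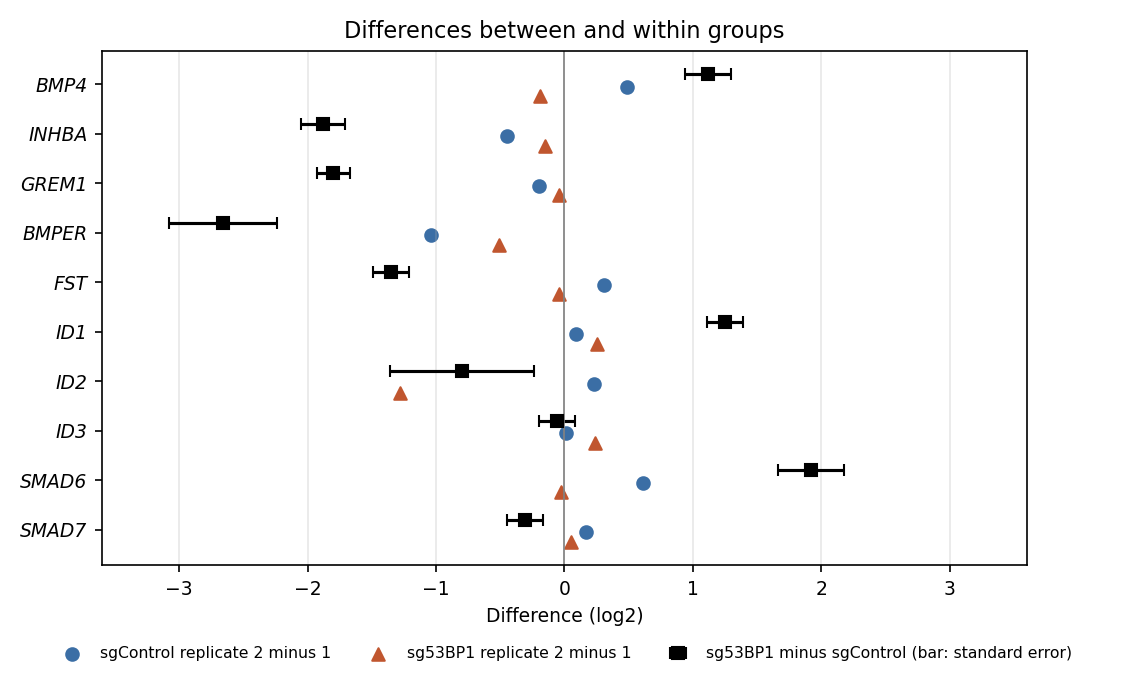
Differences on the log2 scale for each gene: squares give sg53BP1 minus sgControl with the standard error of the fit as a bar, circles the gap between the libraries labelled sgControl and triangles that between the libraries labelled sg53BP1. BMPER has the widest gap in the sgControl pair, −1.04 beside a difference of −2.66, and ID2 has a gap of −1.28 in the sg53BP1 pair beside a difference of −0.80.

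Divided by gene length, the order of the members changed between the groups. Levels per length are CPM per kilobase of merged exons in GENCODE release 29, which need not be the annotation the reads were counted on. In the libraries labelled sgControl, GREM1 led at 119 ± 11.4 CPM per kilobase (SD, n = 2), above 97.9% of tested genes, followed by FST at 70.0 ± 10.5, INHBA at 49.3 ± 10.8, ID3 at 40.9 ± 0.141 and ID1 at 36.5 ± 1.64. Neighbours whose means lay within their joint SD were FST and INHBA, and INHBA and ID3. BMP4 followed at 15.6 ± 3.70 and SMAD7 at 8.70 ± 0.707. BMPER at 1.42 ± 0.697, ID2 at 0.746 ± 0.0896 and SMAD6 at 0.475 ± 0.144 were lowest, of which BMPER and ID2 did not differ beyond their SDs.

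In the libraries labelled sg53BP1, ID1 led at 86.8 ± 10.4 CPM per kilobase (SD, n = 2), above 96.8% of tested genes. ID3 at 39.2 ± 4.53, BMP4 at 34.0 ± 3.19 and GREM1 at 34.0 ± 0.631 came next, and neighbours among these 3 did not differ beyond their SDs. FST stood at 27.5 ± 0.520, INHBA at 13.4 ± 0.978, SMAD7 at 7.00 ± 0.170 and SMAD6 at 1.80 ± 0.0309. ID2 at 0.427 ± 0.283 and BMPER at 0.224 ± 0.0587 were lowest and not apart beyond their SDs. With the length of the longest transcript instead, the order of the 10 within each group was unchanged. GREM1 and ID1 measured 14.6 and 1.23 kilobases on either length, so that this setting could not move their levels.

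**Figure D3:**
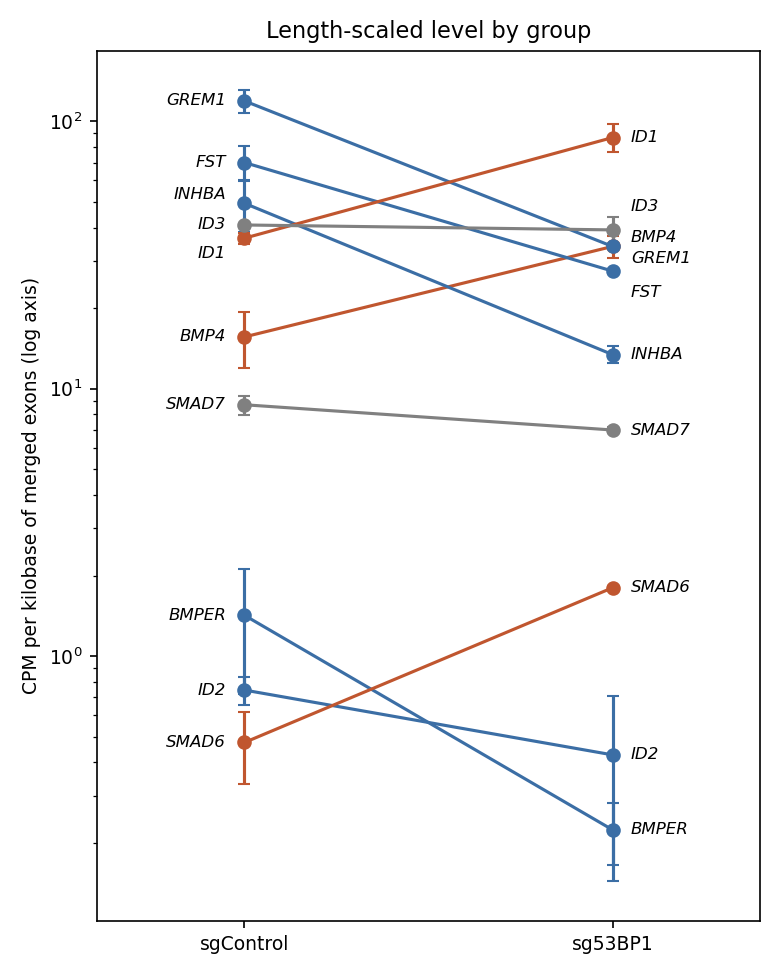
Mean CPM per kilobase of merged exons in each group on a log axis, with the SD of 2 libraries as bars; lines join the same gene and are orange where the group mean is over 1.5 times higher in the libraries labelled sg53BP1, blue where it is over 1.5 times lower and grey otherwise. GREM1 falls from the top place at 119 to 34.0, beside 34.0 for BMP4 on this length, and ID1 takes the top place at 86.8.

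Ratios of members within a library do not depend on its total and show the same values pair by pair. Per length, GREM1 stood at 9.73 and 6.06 times BMP4 in the sgControl pair, against 0.950 and 1.06 times in the other. In the second group the antagonist and its ligand were at a like RNA level on merged exons but not on the longest transcript, with BMP4 at 54.5 and GREM1 at 34.0 CPM per kilobase. ID1 stood at 0.865 and 0.918 times ID3 against 2.21 and 2.22 times. SMAD6 stood at 0.0455 and 0.0627 times SMAD7 against 0.265 and 0.250 times. The ratio of INHBA to FST was 0.910 and 0.539 against 0.505 and 0.468, so that the activin subunit and its antagonist were lower together and sgControl replicate 2 lay near the libraries labelled sg53BP1. BMPER to GREM1, at 0.0151 and 0.00836 against 0.00770 and 0.00543, likewise had the gap within the sgControl pair wider than that between sgControl replicate 2 and sg53BP1 replicate 1.

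**Figure D4:**
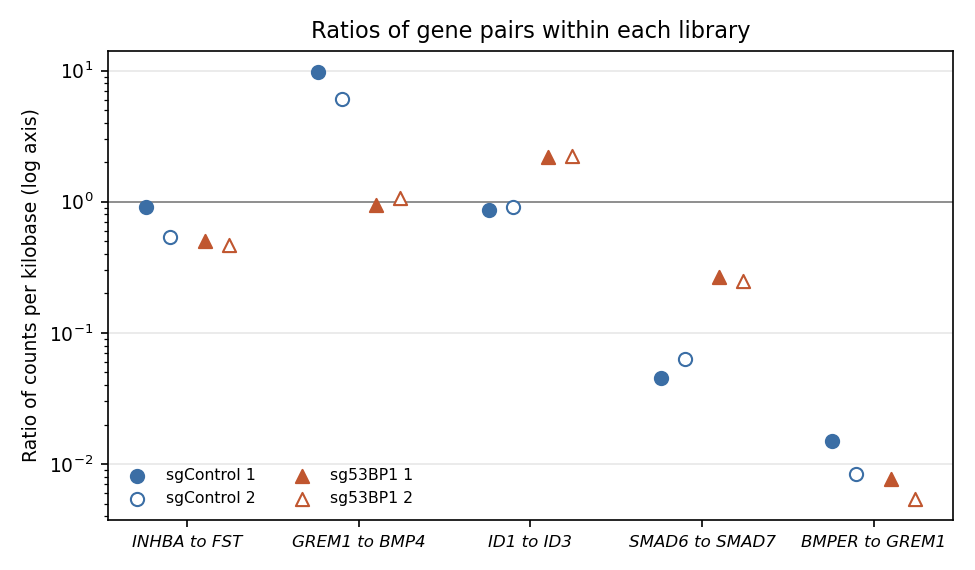
Ratio of counts per kilobase for 5 pairs of members within each library, on a log axis, with symbols for libraries as in the legend. The ratio of GREM1 to BMP4 falls from 9.73 and 6.06 to 0.950 and 1.06, and that of ID1 to ID3 rises from 0.865 and 0.918 to 2.21 and 2.22.

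The rest of the pathway was described by 8 lists with 108 different genes besides the members, of which 88 had a row and 71 were tested. Of these 71, 1 was called higher and 5 lower (edgeR adjusted p under 0.05), or 8.45% beside 5.08% of all tested genes. Their median log2 fold change was −0.10, beside −0.02 over all tested genes. The lists were chosen with earlier results of these data known, so that these values are a description only. No call among the other ligands was made: of 4 tested BMP and GDF ligands and 3 activin, inhibin and nodal ligands none passed (1 and 0 at an unadjusted p under 0.05, and none with the DESeq2 Wald test or limma-voom), with medians of −0.61 and 0.12. GDF6, a BMP-type ligand chosen after its values were seen, had 780 and 298 counts against 176 and 169 (log2 fold change −1.76, SE 0.59, edgeR adjusted p = 0.275). BMP6, another ligand chosen in the same way, had 13 and 3 counts against 26 and 34 (log2 fold change 1.78, SE 0.65, edgeR adjusted p = 0.180).

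Of 9 other extracellular antagonists tested, none passed, with a median log2 fold change of −0.35. At an unadjusted p under 0.05 there were 6, and 3 passed with the DESeq2 Wald test and none with limma-voom. NOG, which encodes the BMP antagonist noggin and was chosen after its values were seen, had 214 and 107 counts against 75 and 58 (log2 fold change −1.38, SE 0.37, edgeR adjusted p = 0.0844). KCP, which encodes a chordin-like BMP regulator, had 151 and 319 counts against 96 and 106 (log2 fold change −1.33, SE 0.36, edgeR adjusted p = 0.0969). FSTL3, a follistatin-like activin binder, had 1695 and 1185 counts against 2262 and 2614 (log2 fold change 0.65, SE 0.19, edgeR adjusted p = 0.116). KCP and FSTL3 were likewise chosen after their values were seen, and 3 of the 9 had a positive log2 fold change.

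Of 13 receptors and co-receptors tested, none rose and 2 fell, with a median of −0.13. ACVR1, a type I receptor for BMPs and activin, was lower, at 32.0 ± 0.258 against 48.0 ± 5.41 CPM (SD, n = 2 each), a difference of −0.59 log2 units (SE 0.14; edgeR adjusted p = 0.0498). NEO1, neogenin, a co-receptor that binds repulsive guidance molecules, was also lower, at 22.8 ± 0.00644 against 37.1 ± 1.38 CPM, a difference of −0.70 log2 units (SE 0.14; edgeR adjusted p = 0.0236). ACVR1 was no longer called with limma-voom (adjusted p = 0.0919), on unscaled library totals (adjusted p = 0.0523) or on size factors from DESeq2 (adjusted p = 0.0551). Without sg53BP1 replicate 1 or 2, the adjusted p was 0.579 and 0.596 for ACVR1 and 0.422 and 0.456 for NEO1.

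Of 16 SMAD transducers and regulators, none passed (1 at an unadjusted edgeR p under 0.05, none with the DESeq2 Wald test or limma-voom), with a median log2 fold change of −0.03. Among them SMAD1 and SMAD5, which carry the BMP signal and were chosen after their values were seen, had log2 fold changes of −0.36 and −0.02 with standard errors of 0.22 and 0.15. Of 9 further BMP target genes tested, none passed (1 at an unadjusted edgeR p under 0.05, none with either other tool), with a median of 0.01.

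Of 14 SMAD2 and SMAD3 target genes, 1 rose and 2 fell, with a median log2 fold change of −0.15. BHLHE40, a basic helix-loop-helix repressor, fell from 143 ± 4.05 to 101 ± 4.94 CPM (SD, n = 2 each; edgeR adjusted p = 0.0474), and KLF10, a TGF-beta-inducible zinc finger factor, rose from 39.0 ± 3.39 to 64.8 ± 6.30 CPM (edgeR adjusted p = 0.0247). With limma-voom the adjusted p was 0.0759 for BHLHE40 and 0.0518 for KLF10. Without sg53BP1 replicate 1 or 2 it was 0.634 and 0.548 for BHLHE40 and 0.445 and 0.280 for KLF10. BHLHE40 was not called either on unscaled library totals (adjusted p = 0.05) or on size factors from DESeq2 (adjusted p = 0.0523). Of the 3 E proteins that ID proteins bind, TCF4 was lower, at 36.4 ± 2.94 against 55.3 ± 1.26 CPM, a difference of −0.60 log2 units (SE 0.14; edgeR adjusted p = 0.0413; adjusted p = 0.0699 with limma-voom, 0.393 without sg53BP1 replicate 1 and 0.618 without sg53BP1 replicate 2), and TCF3 and TCF12 did not pass.

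**Figure D5:**
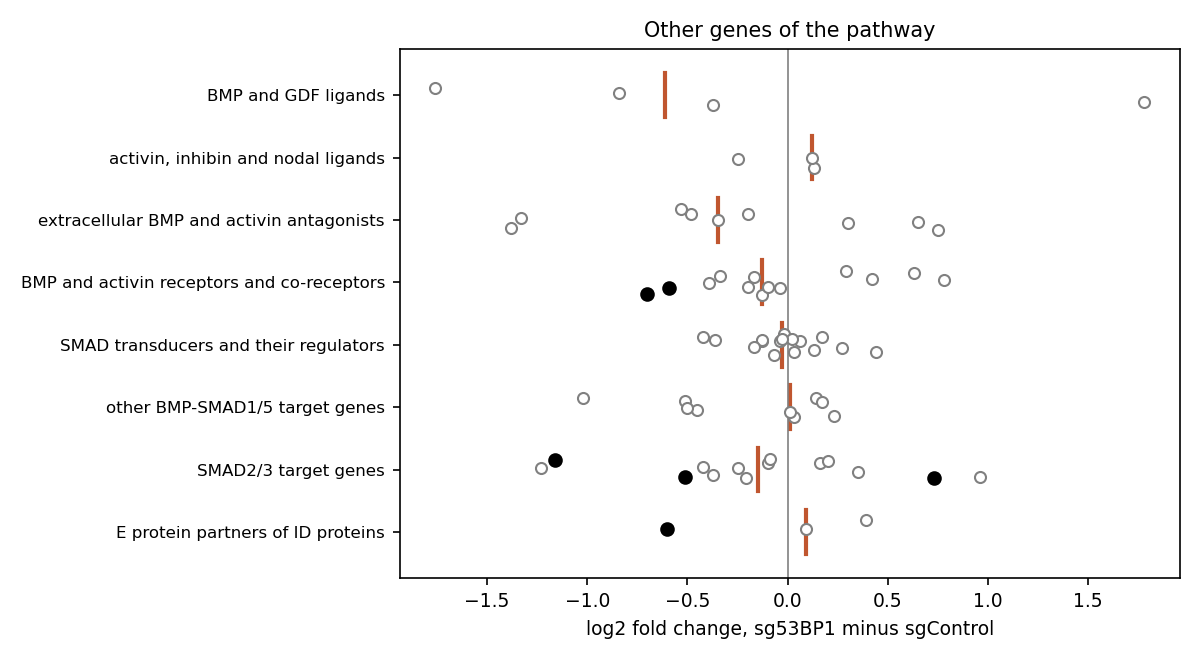
Log2 fold change, sg53BP1 minus sgControl, of the tested genes of 8 pathway lists without the members; filled points passed the edgeR adjusted p of 0.05, open points did not, orange lines are list medians and vertical jitter is for display. Of the 6 filled points, 2 are the receptors NEO1 and ACVR1, 3 are SMAD2 and SMAD3 targets, with BHLHE40 and KLF10 among them, and 1 is the E protein TCF4.

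Markers of other cell types were looked at in the same libraries, since fewer cells of a type and less RNA per cell cannot be told apart in bulk RNA. The 9 fibroblast markers summed to 380 and 336 CPM in the libraries labelled sgControl and to 203 and 214 CPM in those labelled sg53BP1. Most of each sum came from THY1 and FAP. THY1 had 190 and 200 against 104 and 112 CPM, and FAP had 150 and 99.5 against 70.2 and 71.3 CPM. Of the defining collagens, COL1A2 and COL3A1 had at most 6 and 1 counts in a library. COL1A1 had 154 and 150 against 164 and 203 (log2 fold change 0.16, SE 0.22, edgeR adjusted p = 0.765). It was the only 1 of 5 tested markers with a positive log2 fold change, and the median was −0.82. An unadjusted edgeR p under 0.05 was reached by 4 of the 5, while DESeq2 called 3 and limma-voom 1. FAP had 2494 and 1672 counts against 1269 and 1283 (log2 fold change −0.82, SE 0.20, edgeR adjusted p = 0.0658). PDGFRB had a log2 fold change of −0.44 (SE 0.16, edgeR adjusted p = 0.165). Called lower with edgeR were 2, THY1 with a log2 fold change of −0.85 (edgeR adjusted p = 0.00602) and PDGFRA with −1.90 (edgeR adjusted p = 0.0386). Their calls ended without sg53BP1 replicate 1 (adjusted p = 0.301 and 0.569) and without replicate 2 (adjusted p = 0.230 and 0.510), and that of PDGFRA also with limma-voom (adjusted p = 0.0750). The 8 endothelial markers summed to 9.52 and 23.3 against 5.03 and 4.39 CPM, with no call among 5 tested (1 at an unadjusted edgeR p under 0.05, 2 with the DESeq2 Wald test and none with limma-voom), and CDH5 and ERG had at most 4 and 2 counts. KDR had 50 and 233 counts against 34 and 20 (log2 fold change −2.49, SE 0.91, edgeR adjusted p = 0.275) and EGFL7 had 20 and 89 against 2 and 9 (log2 fold change −3.38, SE 0.99, edgeR adjusted p = 0.148), both highest in sgControl replicate 2. The uncalled markers named here were chosen after their values were seen. The 3 leukocyte markers with a row summed to at most 0.542 CPM. The part of these markers in the differences of GREM1, BMPER, INHBA and FST was not tested.

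The genes whose levels followed GREM1 and ID1 most closely were found by Euclidean distance between centred log2 CPM over the 4 libraries. Nearest to GREM1 were LINC01060 at a distance of 0.0491 but at most 0.723 CPM, DENND2A at 0.0791 and STC2 at 0.114. LINC01060 was not called and had a log2 fold change of −2.5 (edgeR adjusted p = 0.118), beside −1.8 for GREM1. The prior count of 2 in log2 CPM shrinks differences at such low levels. STC2, which encodes the secreted glycoprotein stanniocalcin 2, stood at 1830 and 1434 CPM against 462 and 461. Among the 3 nearest to ID1 were ST8SIA1 at 0.238 and PTH1R at 0.250, neither of them called (edgeR adjusted p = 0.0849 and 0.116). PTH1R, a receptor for parathyroid hormone, stood at 1.02 and 1.13 CPM against 2.82 and 2.61. With 4 libraries in 2 groups, such likeness is a description of these libraries.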

How the data were processed

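RNA of 4 hTERT-RPE1 libraries, 2 labelled sgControl and 2 labelled sg53BP1, was read as 150 bp pairs from 2 µg of input, per the labels' protocols. HISAT2 2.1.0, Bowtie2 2.2.3, HTSeq 0.6.0 and build hg19 are named in the submitters' processing notes; roles, annotation and strand setting: not given in the sources used here. The authors deposited raw counts per gene and their own comparison: log2 fold changes (control over knockout) with standard errors, a test score, p-values raw and adjusted, and the mean signal of all libraries. Columns were matched to samples by the description in the labels.

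Of 20050 rows, 397 repeats of an identifier, with equal counts, were removed. Groups were compared with edgeR 4.0.16 in R 4.3.3 (filterByExpr, TMM, robust quasi-likelihood F test, group as the only term; common biological coefficient of variation 0.180), with Benjamini-Hochberg adjustment over 13140 genes. Standard errors were back-calculated from F, and log2 CPM used a prior count of 2. Alternatives were DESeq2 size factors, library totals, no filter at all, a floor of 5 CPM on the mean, DESeq2 1.42.0, limma-voom (limma 3.58.1), the replicate number as a block, a fold threshold, the longest transcript, a prior count of 0.5 and leaving out each library. The fits were tested on simulated data with the same spread in both groups, which the real pairs did not have. Named genes outside the members were TP53BP1, up to 4 called genes per list and the 3 genes nearest to GREM1 and to ID1; the text marks any other gene as chosen later, and 2 genes that the rule names are not reported here. Members and lists were chosen with earlier results of these data known. Counting intervals leave out any other error, as reads lacking molecular identifiers may be copies of 1 molecule. Lengths and overlapping genes came from GENCODE release 29 on GRCh38, a build other than that of the counts, so no coordinates were taken from it. A count of 3 in a library corresponds to 0.165 to 0.180 CPM.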

Additional observations from a re-analysis of the deposited data

How the results depend on the processing

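All members kept their direction in every setting run except ID3, whose log2 fold change was 0.05 without sg53BP1 replicate 1. The number of genes called over the whole table was 667, and 1548 without the low-count filter, 404 with limma-voom, 297 with the replicate number as a block, 368 with a log2 fold change of at least 1, and 5 to 3358 when a library was left out. Members called numbered 7, and 6 with limma-voom (without BMPER) or with the block (without BMP4); leaving out a library gave 0 to 7. Calls among antagonists were 0, and 4 without the low-count filter, 3 with the DESeq2 Wald test and 0 to 6 when a library was left out. Receptors had 2, and 1 with DESeq2 size factors, library totals or limma-voom, 0 with the block and 0 to 3 when a library was left out. Further BMP targets had 0, and 1 without the low-count filter and 0 to 3 when a library was left out. SMAD2 and SMAD3 targets had 3, and 1 with limma-voom or the block and 0 to 7 when a library was left out. The fibroblast marker PDGFRA had an adjusted p of 0.0932 with the block. E proteins had 1, and 0 with limma-voom or the block and 0 to 2 when a library was left out. BMP and GDF ligands had 0 to 3, activin ligands 0 to 1 and SMAD transducers 0 to 1 when a library was left out. The cause of these shifts was not tested, except that a group's lone library takes its spread from the other group, so that without a library labelled sg53BP1 the spread came from the distant sgControl pair. The replicate numbers are shared between the groups only as numbers: deviations of same-numbered libraries from their group means correlated with r = 0.029 across genes, and the block is an alternative without a stated pairing. With a prior count of 0.5 the gap of ID2 in the sg53BP1 pair was −1.42, from −1.28. Counts near 10, as for ID2, limit what can be seen.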
